A study of Mus musculus with 64 samples.

Results

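Inflammasome genes were followed in microglia as a set of 10 of the 49671 genes in the count table, namely Nlrp3, Nlrp1b, Nlrc4, Aim2, Pycard, Casp1, Casp4, Gsdmd, Il18 and Txnip. They were found by gene symbol in the GENCODE M21 annotation of the mouse genome build GRCm38. Some of them have been described elsewhere as targets of REV-ERB, the repressor of the circadian clock that Nr1d1 encodes, so Nr1d1 was read beside them. All 10 passed the filter on low counts in every comparison.

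Total RNA was sequenced from microglia of mice whose strain the labels give as C57BL/6 and the study's methods as C57BL6/N, males aged 9 to 10 weeks. The cells were taken from the hippocampus and the frontal cortex and isolated in the cold with magnetic beads against CD11b, a surface protein that microglia share with other macrophages, monocytes and neutrophils. Each of the 64 libraries carries a region, a phase (Day or Night) and a condition (Soci, Cogn, Ctr0 or Ctr1), which gives 16 groups of 4 libraries. The labels name no genetic change or agent in any group and do not explain the 4 condition names. The study sampled microglia in the light and in the dark phase of a reversed light cycle, with lights off during the clock day. The labels do not say which of these phases is meant by Day, and day and night below follow the labels.

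An inflammasome is a protein complex that forms in the cytosol when a sensor meets a sign of infection or damage. The sensor gathers the adaptor ASC, which brings molecules of caspase-1 together, and the active protease then cuts the precursors of the cytokines IL-1beta and IL-18 and opens gasdermin D, which perforates the cell membrane. Microglia, the resident macrophages of the brain, carry these genes, and the NLRP3 inflammasome is the form most studied in them.

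Library totals lay between 10.2 and 84.5 M counts with a median of 15.9 M, and 3 hippocampal libraries, all of replicate 4, held over 60 M. Levels below are in CPM, the counts of a gene scaled to a common library total with TMM factors over all 64 libraries. The 8 microglia markers summed to between 11057 and 23131 CPM, against at most 2858 CPM for 7 choroid plexus markers, 2287 CPM for 6 astrocyte markers, 1575 CPM for 8 markers of border macrophages, the macrophages of meninges and vessels, and 1257 CPM for 6 endothelial markers. The highest sums of the other lists were 413 CPM for 6 oligodendrocyte markers, 262 CPM for 8 neuron markers and 130 CPM for 8 markers of neutrophils and monocytes. Markers are called higher or lower in day libraries here at an adjusted p under 0.05 in the edgeR comparison described below. Of all genes, 23.4% were called higher and 18.8% lower in hippocampus, and 20.6% and 21.3% in frontal cortex. In day libraries 8 of 8 border macrophage markers were higher in hippocampus (median log2 change 0.78) and 7 of 8 in frontal cortex (0.50). Of the microglia markers 7 of 8 were higher in hippocampus (0.31) and 5 of 8 in frontal cortex (0.23). Of the astrocyte markers 5 of 6 were lower in each region, and 1 was higher in hippocampus. Oligodendrocyte markers were lower for 5 of 6 in hippocampus and 4 of 6 in frontal cortex, and endothelial markers for 5 of 6 and 0 of 6. Beside these, 7 of 7 choroid plexus markers were lower in hippocampus (-2.64), from a summed median of 1610 CPM at night to 260 CPM by day, and 7 of 8 neuron markers were lower in frontal cortex (-1.10). In such bulk samples fewer cells of a type and less RNA per cell cannot be told apart.

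Levels of different genes were compared per length, as CPM per kilobase of exon over the 64 libraries. Txnip had by far the highest level, with a median of 104.6 CPM per kilobase, followed by Gsdmd at 22.8, Nlrp3 at 17.2, Pycard at 16.5 and Aim2 at 15.3. The ranges of Gsdmd (17.7 to 27.2), Nlrp3 (11.5 to 20.2), Pycard (12.7 to 20.8) and Aim2 (11.2 to 19.9) overlapped, so these neighbours in the order were not apart in every library. Il18 had 10.9, Casp1 9.94 and Nlrp1b 7.27 CPM per kilobase, and their ranges overlapped as well. Casp4 at 1.90 and Nlrc4 at 0.317 CPM per kilobase were the lowest, and the highest Nlrc4 library (0.536) lay below the lowest Casp4 library (1.20). Of the cytokines that caspase-1 releases, Il1b had a median of 0.509 CPM per kilobase, far under Il18. Il1a, a relative of Il1b that needs no cut by caspase-1 to be active, had 19.1.

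**Figure D1:**
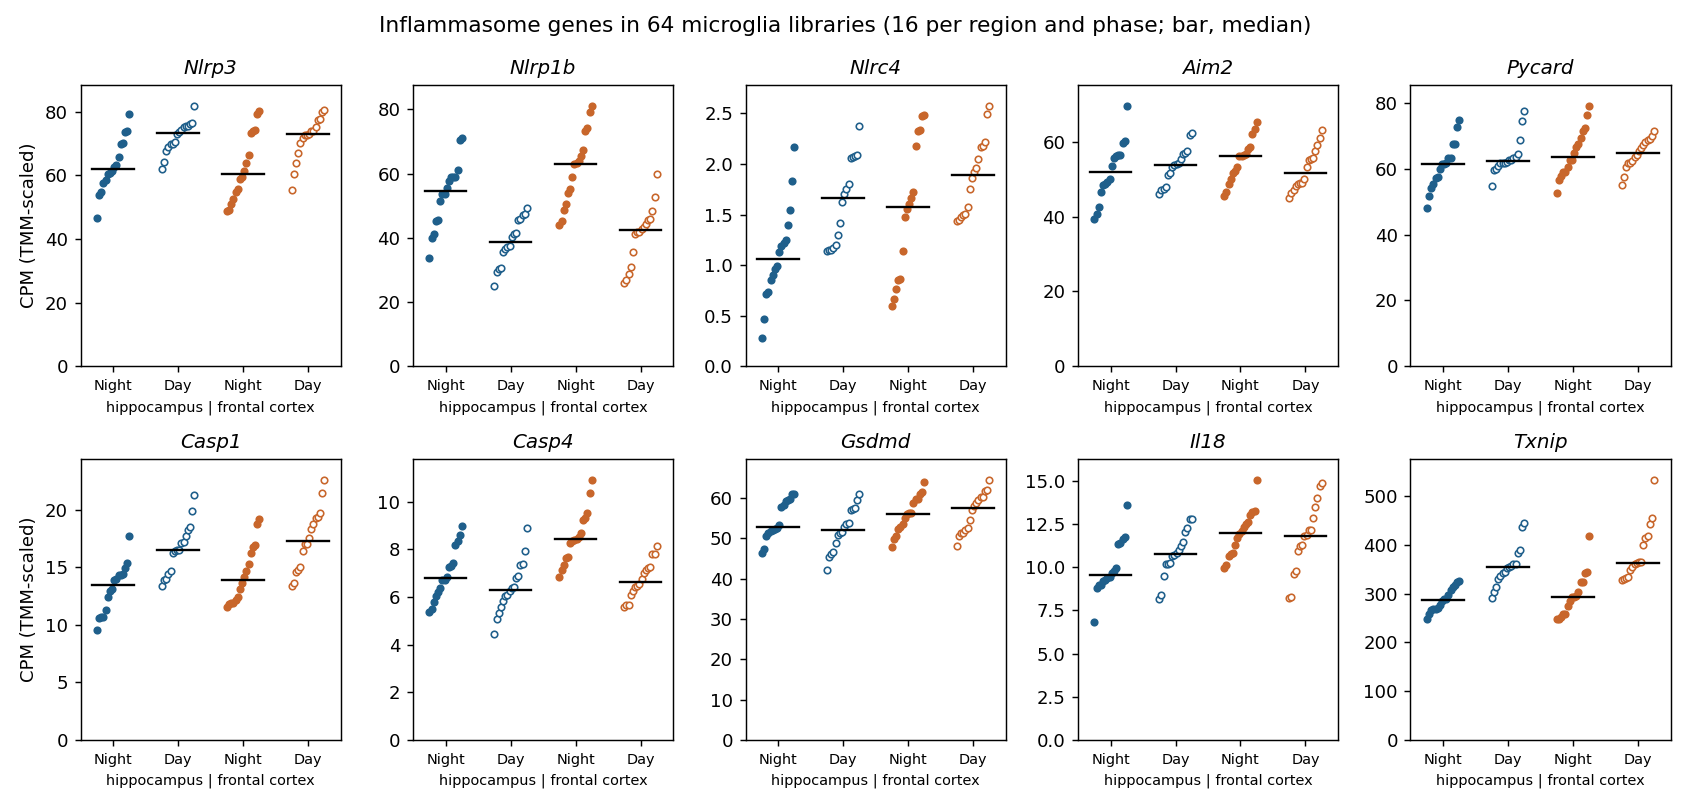
CPM of the 10 genes in each of the 64 libraries (y axis from 0), by region (blue, hippocampus and orange, frontal cortex) and phase (filled, night and open, day), with 16 libraries per column and a bar at the median. In both regions all 16 day libraries of Txnip lie above the night median and none of Nlrp1b does, and each gene has day and night libraries that overlap in both regions.

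The first comparison asked how each gene differed between day and night within a region, over 16 libraries of each phase. A log2 change is day relative to night with its SE, and p-values are those of the quasi-likelihood test of edgeR, adjusted over all genes tested. In hippocampus 5 of the 10 genes passed an adjusted p of 0.05, where 42.2% of all genes tested did. Of these, 4 were higher in day, Nlrp3, Nlrc4, Casp1 and Txnip (23.4% of all genes were called higher), and Nlrp1b was lower (18.8% of all genes). In frontal cortex 5 of 10 passed as well, where 41.8% of all genes did. Nlrp3, Casp1 and Txnip were higher (20.6% of all genes), and Nlrp1b and Casp4 were lower (21.3% of all genes). The median log2 change of the 10 genes was 0.12 in hippocampus, beside 0.02 over all genes, and -0.00 in frontal cortex, beside -0.02. The shares called were close to those of all genes. The split between higher and lower depended on the scaling. With library totals alone 0 of the 10 genes were called higher and 1 lower in hippocampus, where 262 of all genes were called higher and 4031 lower and their median moved to -0.14 on the log2 scale. In frontal cortex 1 was called higher (Txnip) and 2 lower, where 653 of all genes were higher and 3412 lower, with a median of -0.09.

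**Figure D2:**
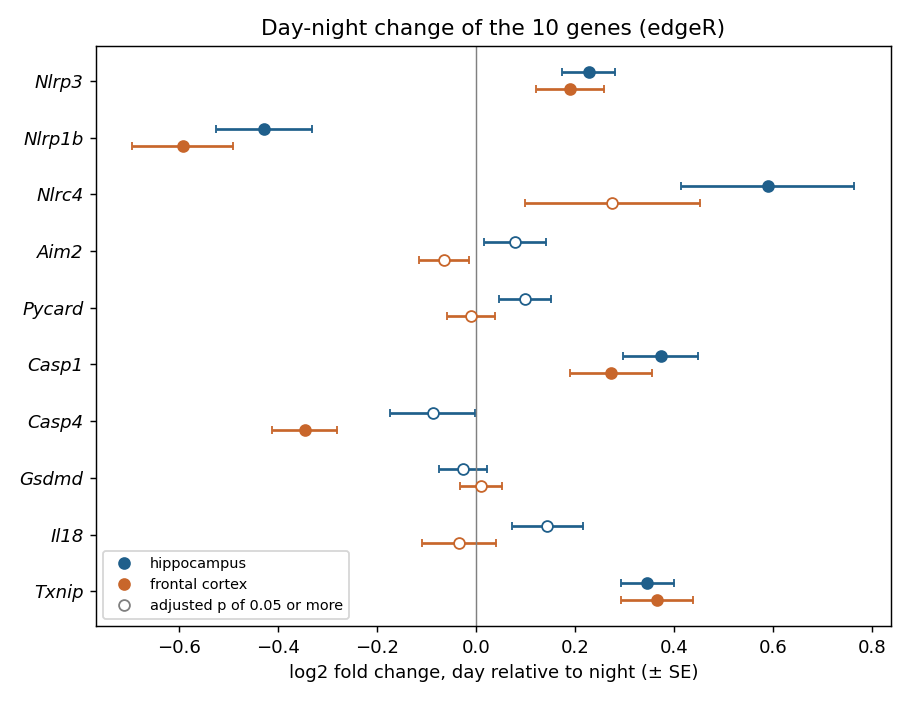
Log2 change of each of the 10 genes in day relative to night libraries (x axis, with SE bars) in hippocampus (blue) and frontal cortex (orange), with 16 libraries per phase and filled points for an adjusted p under 0.05 in edgeR. Nlrp3, Casp1 and Txnip lie to the right of 0 and Nlrp1b to the left in both regions.

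Among the sensors, Nlrp3 (ENSMUSG00000032691, chromosome 11, 59541568 to 59566956, plus strand) encodes the sensor that responds to potassium efflux and many other danger signals. In hippocampus it had 46.6, 62.0 and 79.2 CPM in night libraries (lowest, median and highest) and 62.0, 73.3 and 81.9 CPM in day libraries. In frontal cortex it had 48.9, 60.4 and 80.2 CPM at night and 55.3, 73.0 and 80.6 CPM by day. The phases overlapped, but 15 of 16 day libraries lay above the night median in each region. The log2 change was 0.23 ± 0.05 in hippocampus (edgeR, adjusted p = 0.000978) and 0.19 ± 0.07 in frontal cortex (edgeR, adjusted p = 0.0252). The hippocampal call did not hold when the libraries of replicate 1 were left out (log2 0.15, edgeR, adjusted p = 0.0768). The frontal call was lost without replicate 1, 2 or 3, with a log2 change of 0.17 in each case.

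Nlrp1b (ENSMUSG00000070390, chromosome 11, 71153102 to 71230733, minus strand) encodes a sensor that in some mouse strains is set off when proteases such as that of anthrax toxin cut it. It was the one sensor among the 10 genes that fell in day libraries of both regions. In hippocampus it had 33.6, 54.6 and 71.1 CPM at night and 25.1, 38.8 and 49.3 CPM by day. The values in frontal cortex were 43.9, 63.1 and 81.1 CPM at night and 25.9, 42.3 and 59.9 CPM by day. In neither region did a day library exceed the night median, and 11 night libraries in hippocampus and 9 in frontal cortex lay above all day libraries of their region. Nlrp1b fell by 0.43 on the log2 scale in hippocampus (SE 0.10, edgeR, adjusted p = 0.000555), and in frontal cortex it fell by 0.59 (SE 0.10, edgeR, adjusted p = 3.16e-05). It was lower by day in 4 of 4 conditions and under 4 of 4 replicate numbers in each region.

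Nlrp1b lies in a cluster with 2 near relatives, whose sequence could divide reads among them. Of its 6296 transcript segments of 100 bases, 3 occurred also in Nlrp1a and 0 in the pseudogene Nlrp1c-ps. Nlrp1c-ps moved with Nlrp1b, with a log2 change of -0.33 ± 0.10 in hippocampus (edgeR, adjusted p = 0.00614) and -0.50 ± 0.10 in frontal cortex (edgeR, adjusted p = 0.00022). Nlrp1a had 0.14 ± 0.07 (edgeR, adjusted p = 0.0914) and 0.05 ± 0.07 (edgeR, adjusted p = 0.552). Over the 64 libraries, centred within region, the log2 CPM of Nlrp1b had a Pearson r of 0.96 with Nlrp1c-ps, the highest among 11023 genes searched, and of 0.22 with Nlrp1a.

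Nlrc4 (ENSMUSG00000039193, chromosome 17, 74425438 to 74459142, minus strand) encodes the partner of the NAIP receptors for bacterial flagellin and secretion systems. It was the least abundant of the 10, with 3 counts in its lowest library, a hippocampal one. In hippocampus it had 0.280, 1.06 and 2.17 CPM at night and 1.14, 1.67 and 2.38 CPM by day, so that all 16 day libraries lay above the night median although the ranges overlapped. In frontal cortex the values were 0.599, 1.57 and 2.49 CPM at night and 1.44, 1.89 and 2.57 CPM by day. The log2 change was 0.59 ± 0.17 in hippocampus (edgeR, adjusted p = 0.00678) and 0.27 ± 0.18 in frontal cortex (edgeR, adjusted p = 0.216). The call in hippocampus depended on replicates 1 and 2. When replicate 1 was left out the log2 change was 0.43 (edgeR, adjusted p = 0.118), and when replicate 2 was left out it was 0.46 (edgeR, adjusted p = 0.0938).

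Aim2 (ENSMUSG00000037860, chromosome 1, 173350879 to 173466040, plus strand) encodes the sensor of double-stranded DNA in the cytosol. Its medians were 51.9 CPM at night and 54.0 by day in hippocampus, and 56.2 and 51.7 in frontal cortex, and its day and night ranges overlapped almost whole. The log2 change was 0.08 ± 0.06 (edgeR, adjusted p = 0.326) and -0.07 ± 0.05 (edgeR, adjusted p = 0.315). Cadm3 overlaps Aim2 on the other strand, held 10617 counts against 64126 for Aim2, and had a log2 change of -0.65 in frontal cortex.

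The adaptor ASC is encoded by Pycard (ENSMUSG00000030793, chromosome 7, 127989708 to 127993867, minus strand). Its 64 libraries lay between 48.1 and 79.2 CPM, and its medians differed by little, at 61.4 CPM at night and 62.4 by day in hippocampus and 63.8 and 64.8 in frontal cortex. The log2 change was 0.10 ± 0.05 in hippocampus (edgeR, adjusted p = 0.127) and -0.01 ± 0.05 in frontal cortex (edgeR, adjusted p = 0.885).

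The caspases lie side by side on the plus strand of chromosome 9, Casp1 from 5298517 to 5307265 (ENSMUSG00000025888) and Casp4 from 5308828 to 5336783 (ENSMUSG00000033538), and they moved differently. Casp1 is the protease of the canonical inflammasome. Hippocampal libraries had 9.59, 13.5 and 17.8 CPM at night and 13.4, 16.5 and 21.3 CPM by day, with 15 of 16 day libraries above the night median. In frontal cortex it had 11.5, 13.9 and 19.2 CPM at night and 13.4, 17.3 and 22.6 CPM by day, with 14 of 16 above. Casp1 rose by a log2 of 0.37 ± 0.08 in hippocampus (edgeR, adjusted p = 0.000153) and 0.27 ± 0.08 in frontal cortex (edgeR, adjusted p = 0.00886). The frontal call was lost without replicate 2 (log2 0.20, edgeR, adjusted p = 0.136).

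Casp4, the mouse caspase-11, binds bacterial lipopolysaccharide inside the cell and cuts gasdermin D without a canonical sensor. In frontal cortex it had 6.84, 8.42 and 10.9 CPM at night and 5.57, 6.65 and 8.14 CPM by day. There no day library exceeded the night median and 11 night libraries lay above all day libraries. Casp4 fell by 0.35 on the log2 scale (SE 0.07, edgeR, adjusted p = 9.93e-05). Hippocampal libraries had 5.38, 6.78 and 8.96 CPM at night and 4.46, 6.32 and 8.89 CPM by day, and the log2 change was -0.09 ± 0.09 (edgeR, adjusted p = 0.429). The difference between the regions in this change was 0.22 ± 0.11 on the log2 scale and did not pass (edgeR, adjusted p = 0.491).

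Gasdermin D, the pore that caspase-1 and caspase-11 open, is encoded by Gsdmd (ENSMUSG00000022575, chromosome 15, 75862327 to 75867408, plus strand). It was among the steadiest of the 10. Its group means ran only from 49.9 ± 3.56 to 58.4 ± 3.41 CPM (SD, n = 4) over the 16 groups, a ratio of 1.17 and the lowest of the 10 genes. The log2 change was -0.03 ± 0.05 in hippocampus (edgeR, adjusted p = 0.688) and 0.01 ± 0.04 in frontal cortex (edgeR, adjusted p = 0.880).

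Il18 (ENSMUSG00000039217, chromosome 9, 50554827 to 50581840, plus strand) encodes a cytokine that is made as an inactive precursor. In hippocampus it had 6.82, 9.55 and 13.6 CPM at night and 8.18, 10.8 and 12.8 CPM by day, and in frontal cortex it lay between 9.96 and 15.1 CPM at night and between 8.22 and 14.9 CPM by day. The phases overlapped in both regions. The log2 change was 0.14 ± 0.07 (edgeR, adjusted p = 0.106) and -0.03 ± 0.07 (edgeR, adjusted p = 0.733), and in hippocampus it passed without replicate 3 (log2 0.23, edgeR, adjusted p = 0.00689). Bco2, which overlaps Il18 on the other strand, held more counts (43904 against 13183) and rose by a log2 of 0.29 and 0.21.

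Txnip (ENSMUSG00000038393, chromosome 3, 96557957 to 96561883, plus strand) encodes the thioredoxin-interacting protein, an arrestin-like protein that restrains glucose uptake, binds thioredoxin and has been described as a partner of NLRP3. In hippocampus it had 249, 287 and 325 CPM at night and 290.3, 354 and 446 CPM by day, and 13 of 16 day libraries lay above all night libraries. In frontal cortex it had 248, 293 and 418 CPM at night and 328, 364 and 534 CPM by day. All 16 day libraries exceeded the night median in each region. Txnip rose by a log2 of 0.35 ± 0.05 in hippocampus (edgeR, adjusted p = 3.73e-06) and 0.37 ± 0.07 in frontal cortex (edgeR, adjusted p = 0.000175). It was higher by day in 4 of 4 conditions and under 4 of 4 replicate numbers in each region. The antisense gene Gm15441, which overlaps it, held 145 counts over all libraries against 385117 for Txnip.

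The Txnip promoter is shown because genes whose products are known to act on it are described next. Whether they acted on it in these cells was not tested. The 250 bases before the RefSeq start follow, from chr3:96557707-96557956 of GRCm38.p6, plus strand, 5′ to 3′. Capitals mark the carbohydrate response element, a pair of half-sites like CACG at a fixed spacing whose pattern was chosen knowing the Txnip element, and CCAAT boxes, searched as CCAAT, both on either strand.
Txnip: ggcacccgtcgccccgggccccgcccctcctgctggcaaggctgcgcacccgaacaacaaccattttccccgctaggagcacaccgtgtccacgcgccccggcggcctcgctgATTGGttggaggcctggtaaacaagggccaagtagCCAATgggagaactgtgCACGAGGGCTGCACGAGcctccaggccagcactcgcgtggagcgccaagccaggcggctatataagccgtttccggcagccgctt
The element starts 85 bases before the gene start, with CCAAT boxes at 102 and, on the other strand, 137 bases before it. The pattern occurred in 0.365% of 32851 RefSeq promoters of 300 bases (250 before and 50 after the start) and CCAAT in 37.4%. The pattern of the element occurred in the promoter of no other gene among the 10, of which 9 had an entry (Gsdmd had none). The promoter of Arrdc4, searched alike, held CCAAT boxes and the letters CACGTG but not that pattern.

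Of the 9 relatives and regulators of Txnip that were listed beside it, 3 rose in day libraries of hippocampus and 4 in frontal cortex, and 0 fell in either, beside the 23.4% and 20.6% of all genes called higher. Their median log2 change was 0.01 and 0.10. Arrdc4, the arrestin-like relative that is controlled together with Txnip in many cells, rose by a log2 of 0.47 ± 0.07 (edgeR, adjusted p = 3.24e-06) and 0.43 ± 0.07 (edgeR, adjusted p = 2.41e-05). Mlxip, which encodes the sugar-sensing factor MondoA that binds the carbohydrate response element, rose by 0.36 ± 0.08 (edgeR, adjusted p = 0.000262) and 0.27 ± 0.08 (edgeR, adjusted p = 0.00661). Its partner Mlx rose in frontal cortex (0.19 ± 0.06, edgeR, adjusted p = 0.00988), with 0.08 ± 0.05 in hippocampus. Mlxipl, which encodes the related factor ChREBP, had 0.00 ± 0.08 and -0.05 ± 0.07. Arrdc3 rose in hippocampus (0.17 ± 0.07, edgeR, adjusted p = 0.0356) and Txnrd1, a thioredoxin reductase, in frontal cortex (0.15 ± 0.06, edgeR, adjusted p = 0.0483). Arrdc1, Arrdc2 and Txn1, the thioredoxin that TXNIP binds, passed in neither region.

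The cell type markers given above differed between day and night too, so scores made from them overlap with the phase under test. A call that is lost with a score can therefore not be assigned to cell content, which was not tested. With a score of the 8 microglia markers as a covariate, chosen after the data were seen, Nlrp1b was the one gene of the 10 still called in hippocampus (log2 -0.46 ± 0.13, edgeR, adjusted p = 0.0166), where 18.4% of all genes were. In frontal cortex Nlrp1b (-0.47 ± 0.11), Casp4 (-0.40 ± 0.07), Txnip (0.14 ± 0.04) and Pycard (-0.13 ± 0.04) were called then, where 23.4% of all genes were. Txnip had 0.11 ± 0.05 in hippocampus and did not pass. With the scores of 7 other cell types as covariates edgeR called 0.303% of all genes and 0 of the 10 in hippocampus, with a log2 change of -0.44 ± 0.16 for Nlrp1b (edgeR, adjusted p = 0.219) and 0.06 ± 0.11 for Txnip (edgeR, adjusted p = 0.858). In frontal cortex 10.7% of all genes were called then, and of the 10 Nlrp1b (-1.16 ± 0.19) and Aim2 (-0.41 ± 0.09).

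Of 47 other genes of the pathway, 37 passed the count filter. In hippocampus 14 were higher and 7 lower in day libraries, beside 23.4% and 18.8% of all genes, with a median log2 change of 0.08 against 0.02 over all genes. In frontal cortex 9 were higher and 8 lower, beside 20.6% and 21.3% of all genes, with a median of 0.03 against -0.02. Among the sensors and their relatives, Naip2, a receptor upstream of Nlrc4, rose by 0.30 ± 0.05 in hippocampus (edgeR, adjusted p = 4.71e-05) and 0.30 ± 0.05 in frontal cortex (edgeR, adjusted p = 3.28e-05), while Naip5 fell by 0.17 in frontal cortex and had -0.07 ± 0.08 in hippocampus. Nlrx1, a mitochondrial member of the family, rose by 0.16 and 0.30. Nod2, the receptor for muramyl dipeptide, fell by 0.35 and fell by 0.54.

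Among the genes that license or regulate inflammasomes, the chaperone Hsp90ab1 rose most, by 0.96 ± 0.07 in hippocampus (edgeR, adjusted p = 1.13e-11) and 1.11 ± 0.08 in frontal cortex (edgeR, adjusted p = 5.13e-12). Its co-chaperone Sugt1 rose by 0.16 in each region, and P2rx7, the ATP-gated channel that triggers NLRP3, by 0.17 and 0.11. Nek7, the kinase that NLRP3 needs, rose in hippocampus (0.16 ± 0.05, edgeR, adjusted p = 0.0180) and had 0.07 ± 0.04 in frontal cortex. Pstpip1, which binds pyrin, fell by 0.49 and fell by 0.53.

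Among the genes of execution, Casp8 rose by 0.19 and 0.16, and Ninj1, which ruptures the membrane of dying cells, by 0.24 and 0.37. Casp12 fell by 0.37 in frontal cortex, and Gsdme passed in neither region. Of the cytokines, Il1a rose in hippocampus (0.38 ± 0.08, edgeR, adjusted p = 0.000378) and had 0.22 ± 0.09 in frontal cortex. Il1b had 0.06 ± 0.23 and -0.33 ± 0.24, at medians of 0.801 to 1.11 CPM, and did not pass. Il33 fell by 0.59 and fell by 0.69. Il18bp, the decoy that binds IL-18, passed in neither region, and Il1rn was under the count filter.

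**Figure D3:**
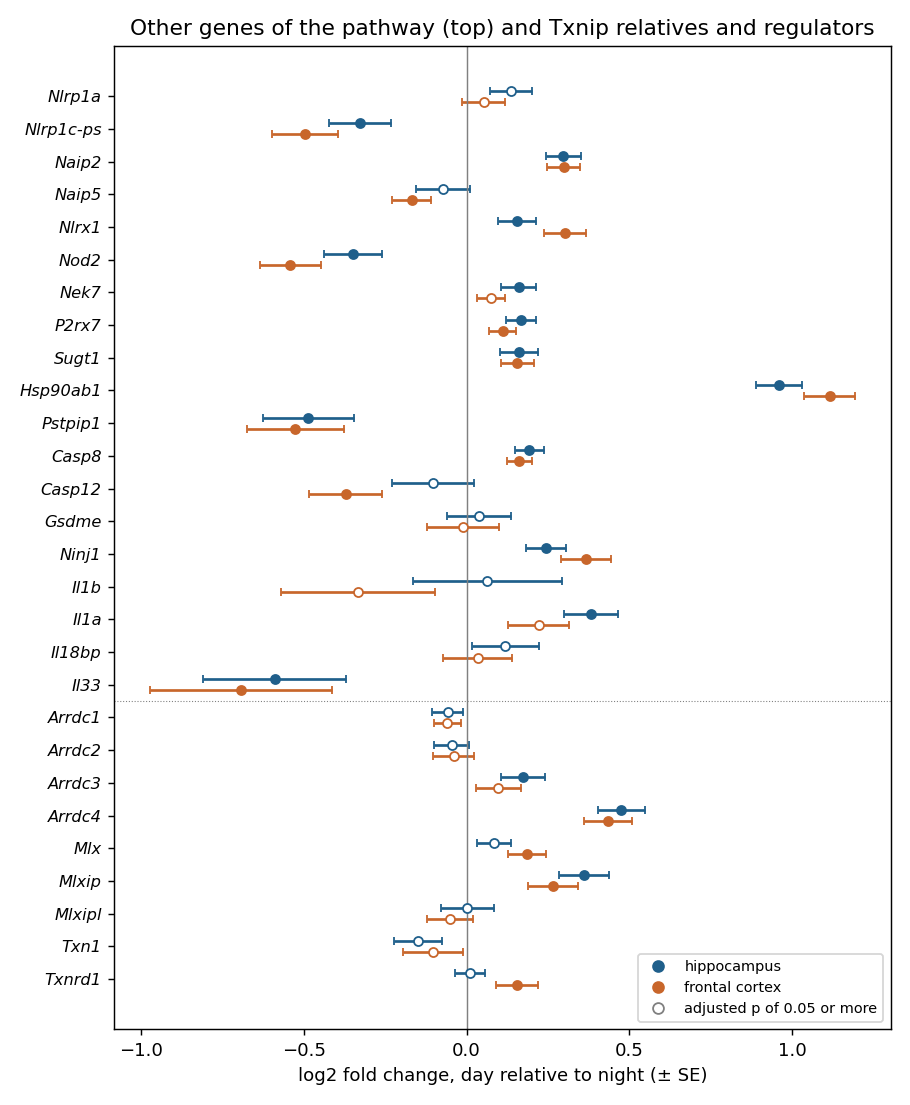
Log2 change in day relative to night libraries (x axis, with SE bars) of other genes of the pathway (above the dotted line) and of the relatives and regulators of Txnip (below it), in hippocampus (blue) and frontal cortex (orange), with filled points for an adjusted p under 0.05 in edgeR. Hsp90ab1 lies farthest to the right in both regions, and Arrdc4 and Mlxip are right of 0 in both.

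Over the 16 groups of 4 libraries the order of the group means followed phase for some genes and not for others. For Txnip the 8 night groups were the lowest 8 of 16, from 271 ± 24.0 CPM in frontal night Ctr0 to a highest mean of 427 ± 84.4 CPM in frontal day Soci (SD, n = 4), a ratio of 1.58. For Casp1 7 of the 8 night groups were among the lowest 8, with means from 12.2 ± 1.83 CPM in hippocampal night Ctr0 to 19.5 ± 3.38 CPM in frontal day Soci. Nlrp1b was turned the other way, with 1 night group among its lowest 8, and ran from 34.4 ± 9.32 CPM in frontal day Cogn to 68.8 ± 9.40 CPM in frontal night Ctr0. Nlrc4 had the widest ratio, 2.93, from 0.669 ± 0.403 CPM in hippocampal night Ctr1 to 1.96 ± 0.437 CPM in frontal day Soci. Aim2 and Gsdmd, with ratios of 1.21 and 1.17, had 4 night groups in each part of the order.

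**Figure D4:**
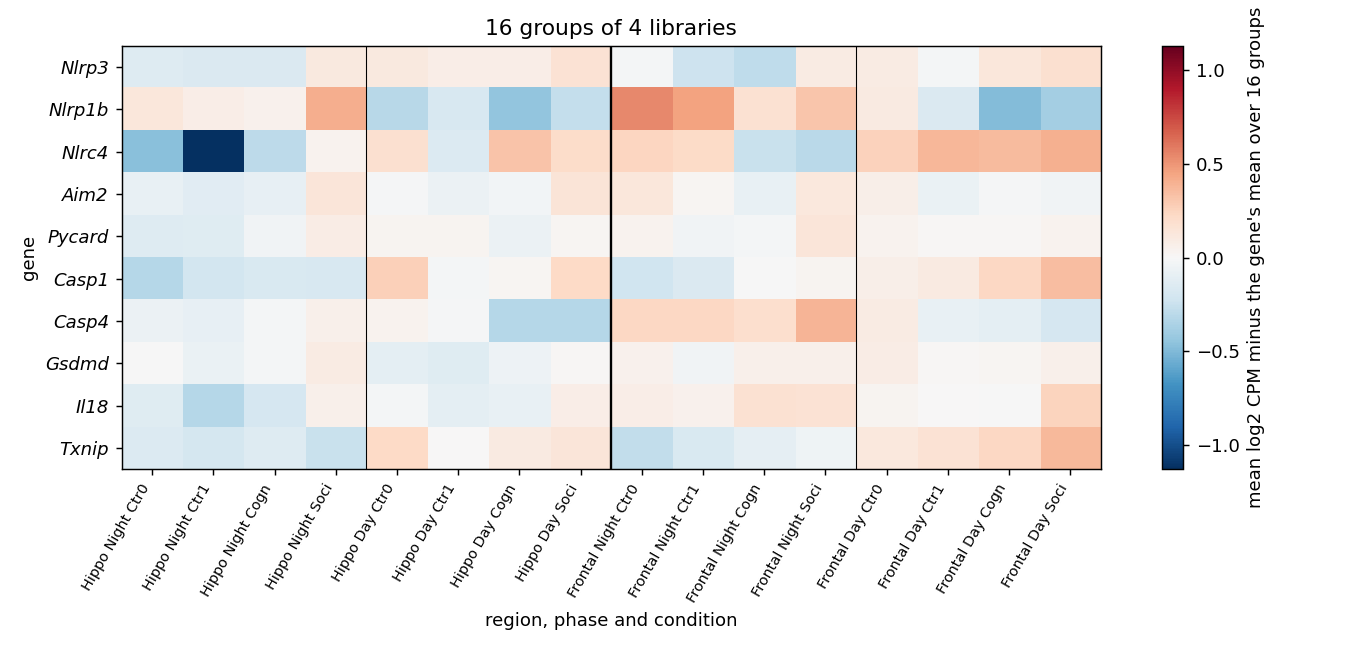
Mean log2 CPM of each of the 10 genes in the 16 groups of 4 libraries, minus the mean of the gene over the 16 groups (colour scale), ordered by region, phase and condition. Txnip is pale blue in the night groups and pale red or near white in the day groups of both regions, Nlrp1b shows the opposite except in frontal day Ctr0, and the darkest cell is Nlrc4 in hippocampal night Ctr1.

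The second comparison concerned the 4 conditions, averaged over the phases. Of the 10 genes 0 passed in each region with edgeR and 0 with DESeq2, and 0% of all genes passed with edgeR. DESeq2 called 0.0357% of all genes in hippocampus and 0.00616% in frontal cortex. At an unadjusted p under 0.05, edgeR gave 1 of the 10 genes in hippocampus, Nlrc4, and 2 in frontal cortex, Nlrp3 and Nlrp1b, beside 6.48% and 6.74% of all genes. Over the pairs of conditions 0 tests of these genes passed in edgeR, where in hippocampus 0.00594% of all genes did between Cogn and Ctr1, 0.0119% between Soci and Ctr1, and 0% in the other pairs of either region. The lowest unadjusted p was that of Nlrp1b in frontal cortex, lower in Cogn than in Ctr0 by a log2 of -0.45 ± 0.13 (edgeR, unadjusted p = 0.00155, adjusted p = 0.570). Nlrc4 was higher in Soci than in Ctr1 in hippocampus by 0.72 ± 0.23 (edgeR, unadjusted p = 0.00416, adjusted p = 0.285). The pairs share libraries and are not independent. With library totals in place of TMM scaling 23.0% of all genes passed in hippocampus and 5 of the 10 did, namely Nlrp3, Nlrc4, Aim2, Gsdmd and Il18.

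The same fits compared the day-night change of the 4 conditions with one another. Of the 10 genes 0 passed in each region with edgeR and 0 with DESeq2, and 0 had an unadjusted p under 0.05 in edgeR, where 0% of all genes passed in hippocampus and 0.00616% in frontal cortex (4.13% and 3.71% unadjusted). DESeq2 called 0.0832% of all genes in hippocampus and 0.0554% in frontal cortex. For Txnip the change lay between 0.20 and 0.39 over the conditions in hippocampus and between 0.33 and 0.42 in frontal cortex. For Nlrp1b it lay between -0.67 and -0.26 and between -0.69 and -0.44.

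The third comparison set hippocampus against frontal cortex across day and night. Libraries of both regions were treated as independent, although both tissues may have come from the same animals. Casp4 and Il18 passed, 2 of the 10 genes, where 16.6% of all genes did, and both were lower in hippocampus, as 6.17% of all genes were, against 10.4% higher. Casp4 had a log2 difference of -0.18 ± 0.05 (edgeR, adjusted p = 0.0127) and Il18 of -0.19 ± 0.05 (edgeR, adjusted p = 0.00869). Of the 10 differences 9 were negative, with a median of -0.09 beside -0.00 over all genes. In the same comparison 8 of 8 microglia markers had a negative difference (median -0.10), 5 of the 6 tested markers of neutrophils and monocytes were lower (-0.77) and 7 of 7 choroid plexus markers were higher (2.90), and with the scores of 7 other cell types the differences were -0.14 for Casp4 (edgeR, adjusted p = 0.184) and -0.15 for Il18 (edgeR, adjusted p = 0.133). Both calls were lost without replicate 2, with -0.16 for Casp4 (edgeR, adjusted p = 0.0834) and -0.17 for Il18 (edgeR, adjusted p = 0.0738). The day-night change differed between the regions for 0 of the 10 genes with edgeR and 0 with DESeq2, where 1.19% of all genes passed in edgeR and 1.63% in DESeq2. Casp4 alone of the 10 had an unadjusted p under 0.05 in edgeR, beside 9.88% of all genes.

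The last comparison set the 10 genes against the level of Nr1d1 in the same library. Nr1d1 (ENSMUSG00000020889, chromosome 11, 98767932 to 98775333, minus strand) overlaps Thra on the other strand, which held 47772 counts over all libraries against 11400 for Nr1d1, and without a known strand setting their shared reads cannot be told apart. It had 5.12, 14.8 and 30.9 CPM in hippocampal night libraries and 1.98, 4.05 and 7.58 CPM by day, and 5.57, 12.3 and 33.0 CPM at night and 2.06, 4.04 and 5.61 CPM by day in frontal cortex. Its level thus varied several-fold among night libraries of 1 region. The slope of a gene was fitted within the 8 phase and condition groups of a region, so the day-night difference of Nr1d1 does not enter it, and is given as log2 change per log2 unit of Nr1d1.

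All 10 slopes were negative in each region, with a median of -0.22 in hippocampus and -0.17 in frontal cortex, beside -0.02 over all genes in each. In hippocampus 7 of the 10 genes were called, all lower with higher Nr1d1, where 40.7% of all genes were called and 20.4% lower. They were Nlrc4 (-0.61 ± 0.13), Nlrp1b (-0.32 ± 0.09), Casp4 (-0.28 ± 0.07), Casp1 (-0.24 ± 0.07), Il18 (-0.23 ± 0.06), Aim2 (-0.22 ± 0.05) and Pycard (-0.18 ± 0.04), with adjusted p-values from edgeR between 0.000592 and 0.00704. Nlrp3, had -0.12 ± 0.05 and did not pass (edgeR, adjusted p = 0.0678), nor did Gsdmd (-0.10 ± 0.05) and Txnip (-0.08 ± 0.06). In frontal cortex 5 were called, all lower, where 30.8% of all genes were called, 10.1% lower and 20.7% higher. They were Casp1 (-0.24 ± 0.08), Il18 (-0.21 ± 0.08), Aim2 (-0.20 ± 0.04), Gsdmd (-0.17 ± 0.04) and Pycard (-0.16 ± 0.05), with adjusted p-values from edgeR between 0.000416 and 0.0346, and Nlrp3 had -0.13 ± 0.06 (edgeR, adjusted p = 0.141).

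The markers of other cells moved with Nr1d1 too. In hippocampus 8 of 8 neuron markers rose with it (median slope 0.61) and 5 of 8 border macrophage markers fell (-0.32). In frontal cortex 6 of 8 neuron markers rose (0.62) and 1 of 8 border macrophage markers fell (-0.22). The microglia markers had negative slopes as the 10 genes did, 8 of 8 in each region. Their median slope was -0.04 in hippocampus and -0.16 in frontal cortex, and 1 of 8 was called in each. With the scores of 7 other cell types as covariates, edgeR called 0 of the 10 genes and 0% of all genes in each region, the median slope of the 10 genes was 0.02 and 0.01, and 4 of 10 were negative in each. With the microglia score as the covariate 7 and 5 genes were called, where 42.5% and 36.2% of all genes were, and in frontal cortex Nlrp1b was then among them and Casp1 was not. Without replicate 1 the hippocampal count was 2 (Nlrc4 and Il18), where 7.23% of all genes were called, and without replicate 3 it was 2 (Aim2 and Pycard), where 16.6% were. In frontal cortex it was 2, 3, 2 and 2 without replicates 1, 2, 3 and 4, where 11%, 24.8%, 17.4% and 25.5% of all genes were called, and Aim2 was called in each case.

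**Figure D5:**
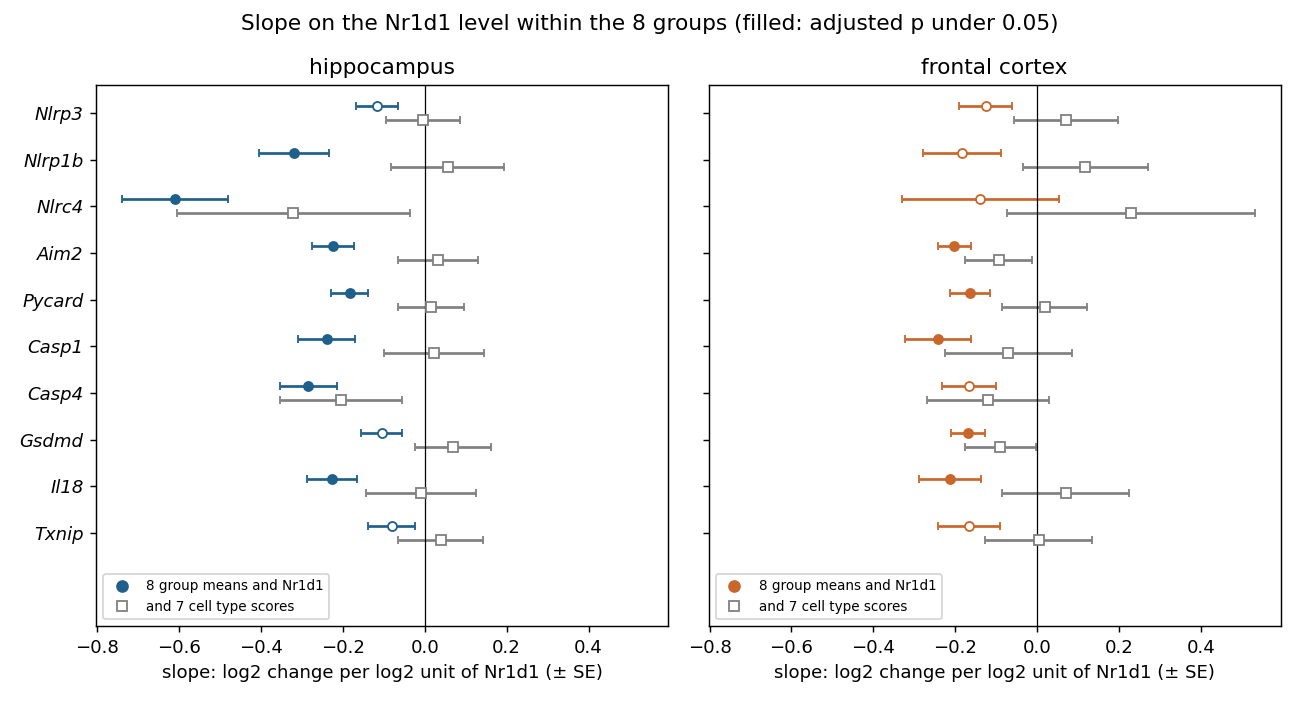
Slope of each of the 10 genes on the Nr1d1 level (x axis, log2 change per log2 unit, with SE bars) within the 8 groups of hippocampus (left) and frontal cortex (right), without (circles) and with (grey squares) the scores of 7 other cell types, filled for an adjusted p under 0.05 in edgeR. All circles lie left of 0, and the squares lie on both sides of it with wider bars.

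Within each region and phase the correlation of each gene with Nr1d1 was taken over 16 libraries, which gives 40 relations. The correlation pooled the 4 conditions, so unlike the slopes it includes differences between conditions. It was negative for 10 of 10 genes in hippocampal night libraries (Pearson r from -0.78 to -0.33), 10 in hippocampal day (-0.76 to -0.28), 8 in frontal night (-0.75 to 0.21) and 9 in frontal day libraries (-0.57 to 0.07). After adjustment over the 40 relations 6, 5, 5 and 0 passed 0.05 by Pearson's r and 3, 3, 4 and 0 by Spearman's rho. The shares over all genes were not computed for these correlations, so nothing particular to the 10 genes can be read from the counts. Nlrc4 in hippocampal night libraries had r = -0.78 (permutation p = 0.00045, adjusted p = 0.00773), rho = -0.78 (permutation p = 0.00057, adjusted p = 0.0116) and r = -0.68 without the 2 libraries farthest from the median of Nr1d1. Gsdmd in frontal night libraries had r = -0.75 (permutation p = 0.00100, adjusted p = 0.00800), rho = -0.71 (permutation p = 0.00321, adjusted p = 0.0171) and r = -0.58 without 2. Nlrp3 in hippocampal day libraries had r = -0.76 (permutation p = 0.00058, adjusted p = 0.00773), rho = -0.71 (permutation p = 0.00269, adjusted p = 0.0171) and r = -0.53 without 2, whereas in frontal day libraries it had r = -0.12 (permutation p = 0.653, adjusted p = 0.687).

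Core letters of the sites to which REV-ERB binds were looked for in the RefSeq promoters of 9 of the 10 genes, which have 12 starts among them. The bases beside the core were not matched, so a match need not be a full site. The letters TAGGTCA occurred in none, beside 2.61% of 32851 promoters, and TGGGTCA in 1, beside 3.98%, each searched on both strands. The 1 was the promoter of Aim2, shown as 30 bases with these letters in capitals, from chr1:173420487-173420516 of GRCm38.p6, plus strand, 5′ to 3′.
Aim2: attggaggaagTGGGTCActgagggcggcc
The letters start 106 bases before the RefSeq start, and GAGGAAGT, the core of sites for the myeloid factor PU.1, runs into them from 113 bases before it. GAGGAAGT was also found in promoters of Pycard and Nlrp1b, beside 3.20% of all promoters. The slopes of Aim2 on Nr1d1 are those given above, and other parts of these genes were not searched.

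The genes whose levels were most like those of the 10 over the 64 libraries were found among 11023 genes with a mean of at least 4 CPM, by Pearson r of log2 CPM centred within region, as a description. For Txnip they were Ifngr1 (0.97), Serinc3 (0.95) and Fcgr3 (0.95), for Casp1 Asah1, Snx5 and Sdcbp (each 0.88), and for Nlrp3 Nrros (0.87), Rin2 (0.86) and Bhlhe41 (0.83). For Pycard they were Siglech (0.84), a microglia marker, Arpc4 and Slc11a1 (each 0.82), for Aim2 Zbtb37, Tubgcp5 and Hpgds (each 0.82), and for Casp4 Cd33 (0.81), Lacc1 (0.74) and Camk2d (0.71). For Nlrp1b Luc7l2 (0.90) and Ccdc62 (0.89) followed Nlrp1c-ps. Gsdmd had Fes (0.76), Fgd2 (0.75) and Unc13d (0.74), Nlrc4 had Tlr8 (0.72), Stab1 and Nfxl1 (each 0.68), and Il18 had 4632404H12Rik (0.70), Mknk1 (0.69) and Paox (0.67). Among the 10 genes themselves, Casp1 was most like Txnip (0.81) and Nlrp1b most unlike it (-0.68). All these values share the libraries, their phases and their depth.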

How the data were processed

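RNA of 64 microglial libraries had been sequenced after depletion of ribosomal RNA, and the authors deposited raw counts per gene for all of them in a single table. According to the methods and the submitters' processing notes, reads were aligned with STAR 2.7.3a to GRCm38.p5 and counted with featureCounts of Subread 2.0.0. The strand setting and the handling of reads with several matches are not given in the sources used here, so genes that overlap on opposite strands cannot be told apart. The 10 genes and all other gene lists were chosen with earlier results of these data known. Genes were named by that choice, with other genes of the pathway by name where they passed in both regions or stood on a short list of well-known members, the relatives of Txnip, and the 3 genes most like each of the 10.

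Libraries were grouped by their titles. Counts were tested in R 4.3.3 with edgeR 4.0.16, by its quasi-likelihood test (TMM scaling, filterByExpr, Benjamini-Hochberg adjustment over all genes tested, threshold 0.05). The day-night and condition fits were made within each region, and the region fit over all libraries. SE was taken as the absolute log2 change over the root of the F statistic. Log2 CPM used a prior count of 2. Correlations used two-sided permutation tests with 100000 resamples. Nothing states that libraries of a group came from separate animals, so p-values measure the spread between these samples, which may be technical. Of the 96 pairs of libraries within groups 0 were identical.

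Alternatives were other scalings, DESeq2 1.42.0, other filters, a replicate block, leaving out replicates, and cell type scores. On simulated data with 200 genes changed by a fold of 2, edgeR recovered 198 in the day-night fit of hippocampus and 197 in that of frontal cortex, 192 for conditions and 142 for phase by condition, both in hippocampus, 191 for the Nr1d1 level in hippocampus and 185 in frontal cortex, 200 for regions and 184 for region by phase. It also called between 7 and 20 unchanged genes per fit. The day-night changes of the 10 genes were smaller than a fold of 2 in the main fits, and Nlrc4 lay below the level of the genes changed. The recovery of changes as small as those of the 10 genes was not tested. Promoters were those of RefSeq for GRCm38.p6.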

Additional observations from a re-analysis of the deposited data

Results flagged for a closer look

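In 9 of 160 sets of 4 libraries (10 genes in 16 groups) a single library stood far from the other 3, where chance gives about 1 in 20, or 8. Nlrc4, which has few counts, gave 3 of them. It had 0.599 CPM in replicate 4 of frontal night Ctr1 against 2.17 to 2.48 in the others, 1.20 CPM in replicate 3 of hippocampal day Cogn against 2.06 to 2.08, and 1.71 CPM in replicate 1 of hippocampal day Ctr1 against 1.14 to 1.16. Casp1 stood apart in the last of these libraries too, with 17.7 CPM against 13.9 to 14.4. Il18 had 11.3 CPM in replicate 3 of hippocampal night Cogn against 8.97 to 9.21, where Gsdmd had 58.3 CPM against 51.8 to 52.5. Il18 also had 6.82 CPM in replicate 4 of hippocampal night Ctr1 against 9.28 to 9.80. Aim2 had 46.7 CPM in replicate 2 of frontal night Ctr1 against 56.2 to 56.7, and Pycard had 77.6 CPM in replicate 1 of hippocampal day Ctr0 against 59.9 to 61.8.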

How the results depend on the processing

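Settings chosen after seeing the data were the microglia score, the log2 library total, the deep libraries left out and replicate 4 alone. Of the values of single genes, 989 under the other settings and 154 under these stayed on their side of the threshold. Another 74 and 21 fell short of it, and 29 and 4 newly passed it. A turn of direction was counted only for genes called in the main or the other fit, with 7 and 1 such values. The 989 and 154 therefore include genes called in neither fit whose sign changed, and tests over the 4 conditions, which have no direction. In the day-night comparison the 5 genes called in hippocampus became 1 with library totals alone (27.6% of all genes), 0 with 7 cell type scores (0.303%), 0 with the border macrophage score (3.27%), 1 with the microglia score (18.4%) and 0 in replicate 4 alone (0.736%), and ran from 3 to 6 when a replicate was left out (28.2% to 47.6%). The 5 in frontal cortex became 3, 2, 2, 4 and 0 under the same settings (27.1%, 10.7%, 8.11%, 23.4% and 0% of all genes) and ran from 3 to 5 (26.5% to 43.2%). For conditions in hippocampus 0 became 5 with library totals alone (23.0%). For the Nr1d1 level 7 in hippocampus became 2 with library totals alone (14.9%) and 0 with 7 scores (0%), and ran from 2 to 8 (7.23% to 38.7%), and 5 in frontal cortex became 2 (14.7%), 0 (0%) and, with log2 library total as a covariate, 3 (26.4%), and ran from 2 to 3 (11% to 25.5%). For regions 2 became 4 with library totals alone (15.8%), 0 with 7 scores (12.2%), 4 without genes over 1% of counts (19.7%), 4 without the 3 deep libraries (17.1%) and 0 in replicate 4 alone (0%), and ran from 0 to 3 (8.29% to 22%). For region by phase 0 became 2 with 7 scores (Aim2 and Pycard, 13.1%). Among genes called in the main or the other fit, the direction turned with 7 scores for Nlrc4 by day in hippocampus (-0.57), for the Nr1d1 slopes of Nlrp1b (0.056), Aim2 (0.032), Pycard (0.016) and Casp1 (0.022) in hippocampus and of Pycard (0.018) and Il18 (0.070) in frontal cortex, and in replicate 4 alone for Nlrp3 by day in frontal cortex (-0.015). Other genes changed sign without being called in either fit. With 7 scores, 7 of the 10 day-night changes in hippocampus were negative, against 3 in the main fit. Of the 10 Nr1d1 slopes 4 were negative in each region, against 10. The causes were not tested.

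The labels tie libraries of the same replicate number to nothing shared. Of same-number pairs 46 of 112 in hippocampus and 53 of 112 in frontal cortex had r over 0.1, against 118 of 336 and 126 of 336 pairs of other numbers. The median r was higher for the same number in each region, at 0.017 against -0.015 in hippocampus and 0.065 against -0.042 in frontal cortex. Not every pair deviated together, which does not decide whether libraries of a number shared something. The numbers were not taken as pairs in the main fits. A weaker tie by number was not tested. Between the regions, 12 of 32 pairs of the same phase, condition and number had r over 0.1. In 11 of 32 the hippocampal library was closest to its own number among the cortical libraries of that phase and condition. With these region pairs as a block 3 of the 10 genes were called for regions, beside 19.8% of all genes. With the replicate block the counts were 5 and 5 by day and night (42.2% and 43.4% of all genes), 9 and 2 for the Nr1d1 level (37.1% and 15.6%) and 2 for regions (18.3%).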
